A study of Rattus norvegicus with 6 samples.

Results

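In rat disc cells with and without serum, 10 genes of transforming growth factor beta (TGF-beta) signalling were followed. They encode its ligands, their receptors and the latent TGF-beta binding proteins (LTBPs, here also called latency proteins). They are the ligands Tgfb1, Tgfb2 and Tgfb3, the receptors Tgfbr1, Tgfbr2 and Tgfbr3, and the latent TGF-beta binding proteins Ltbp1, Ltbp2, Ltbp3 and Ltbp4. They were taken by symbol from the deposited tables. All 10 were present once each among 17093 genes, and all 10 were among the 11493 genes tested. RNA came from primary cultures of nucleus pulposus, the gel-like centre of an intervertebral disc, from male rats (Rattus norvegicus) at passages 3 to 6. Serum-starved cells (3 libraries, a time of 48 h) were kept without fetal bovine serum, and control cells (3 libraries, also 48 h) in medium with 10% serum. DMEM-F12 medium with penicillin and streptomycin was given for the cultures in general. Strain, age and the number of animals are not given in the sources used here, nor whether each library had its own culture, so every p-value rests on a spread that may be technical.

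TGF-beta is secreted as a dimer still held by its own cleaved propeptide, which keeps it from binding its receptors. Latent TGF-beta binding proteins couple this inactive complex to matrix fibres of fibrillin and fibronectin, from which integrins, proteases or thrombospondin can release or activate the ligand. The freed ligand binds the type II receptor, which phosphorylates the type I receptor, and this in turn phosphorylates SMAD2 and SMAD3, which act in the nucleus together with SMAD4. In disc and cartilage cells the pathway is known for driving matrix synthesis.

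Values are the deposited ones, treated as FPKM (fragment numbers divided by transcript length and by the library total), so levels of different genes are compared per transcript length. Library totals of these values were 447788 to 473452 (serum-starved) and 522165 to 530095 (control), and read depth is unknown. Each log2 fold change is the serum-starved mean minus the control mean of log2(FPKM + 1), a scale that understates changes of low genes. A gene is said to rise or fall where limma, fitted over all tested genes, gave an adjusted p (Benjamini-Hochberg) no higher than 0.05. The label was set against marker genes. Among nucleus pulposus markers, Pax1 lay between 46.23 and 56.27 FPKM in serum-starved and between 23.58 and 29.71 FPKM in control libraries, whereas Krt18 was listed at 0 and Col2a1 was at most 0.06 FPKM in every library. T and Krt19 of this list were not matched. Of its 8 tested markers, 2 rose (Pax1 and Car3) and 6 fell (Acan, Slc2a1, Sox9, Foxf1, Car12 and Krt8). Over all tested genes, the background for each marker list here, 31.7% rose and 29.4% fell. Car12 reached the test only through control libraries (1.65, 1.4 and 2.24 FPKM), with at most 0.09 FPKM in serum-starved libraries. Acan averaged 3.05 FPKM in serum-starved and 77.5 FPKM in control cells, and Slc2a1 30.7 FPKM in serum-starved and 142 FPKM in control cells. Sox9 averaged 1.27 FPKM in serum-starved and 5.11 FPKM in control cells. The summed FPKM of the 11 matched markers was 132.93 to 141.22 in serum-starved and 269.58 to 313.35 in control libraries. The 6 matched macrophage and leukocyte markers summed to between 10.6 and 14.18 FPKM in serum-starved and between 23.7 and 30.19 FPKM in control libraries, mostly Cd14, with Cd163 listed at 0 throughout and Adgre1 and Csf1r below 0.5 FPKM. Both tested markers of that list changed: Cd14 fell (mean 8.54 FPKM in serum-starved and 24.8 FPKM in control cells) and Cd68 rose (3.38 FPKM in serum-starved and 1.96 FPKM in control cells). The 4 matched endothelial markers summed to between 0.62 and 0.81 FPKM in serum-starved and between 0.58 and 1.19 FPKM in control libraries. The 6 smooth muscle and pericyte markers summed to between 149.63 and 169.71 FPKM in serum-starved and between 278.48 and 310.57 FPKM in control libraries, with Rgs5 at most 0.15 FPKM. Of its 5 tested markers 2 rose, Pdgfrb (mean 96.1 FPKM in serum-starved and 51.0 FPKM in control cells) and Myh11, and 2 fell, Cspg4 (37.5 FPKM in serum-starved and 108 FPKM in control cells) and Des. The 4 matched annulus and tendon markers summed to between 46.29 and 58.32 FPKM in serum-starved and between 49.72 and 57.67 FPKM in control libraries. Of the 3 tested, Mkx rose (mean 10.6 FPKM in serum-starved and 3.6 FPKM in control cells) and Scx did not pass. Thbs4 fell (4.05 FPKM in serum-starved and 8.82 FPKM in control cells). The part of such marker differences in the results that follow was not tested, and in bulk RNA fewer cells of a type and less RNA per cell cannot be told apart.

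Of the 10 genes, 4 rose in serum-starved cells (Tgfb2, Tgfbr2, Ltbp1 and Ltbp3) and 3 fell (Tgfb3, Ltbp2 and Ltbp4), while Tgfb1, Tgfbr1 and Tgfbr3 did not pass the test. Called genes were thus 70.0% of the set, while 61.1% of all tested genes were called (31.7% rose and 29.4% fell). The share in the set is near that background. The libraries of the groups did not overlap for 8 of the 10 genes, against 68.2% of all tested genes (35.7% with serum-starved above control and 32.5% below). The median log2 fold change of the set was 0.08, beside 0.03 over all tested genes. Changes in opposite directions occurred among the ligands and among the latency proteins. Those of Tgfbr2, Ltbp3, Tgfb3 and Ltbp2 passed the test in each of the 16 alternative settings, those of Tgfb2 and Ltbp1 in 9 of 16 and that of Ltbp4 in 14 of 16. The number that rose was 2, Tgfbr2 and Ltbp3, with median-ratio scaling and without control replicate 1 or 2 or serum-starved replicate 1 or 2.

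**Figure D1:**
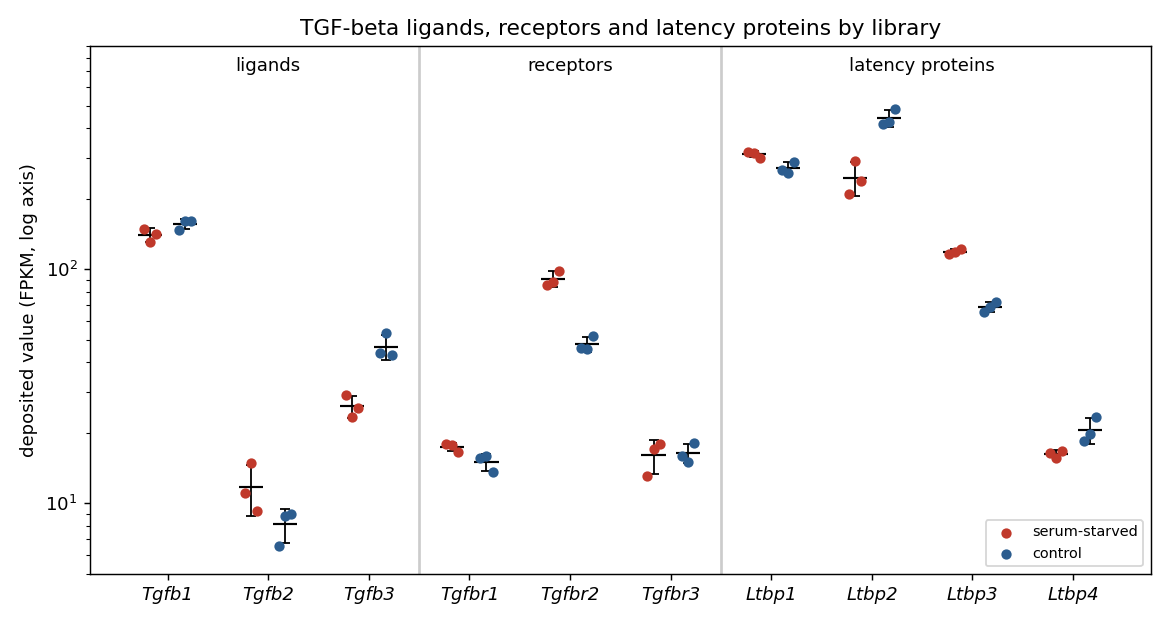
Deposited value (FPKM, log axis) of each gene in every library, with serum-starved libraries in red on the left of each pair and control libraries in blue on the right; horizontal bars are means and error bars the SD (n = 3 each). Tgfbr2 and Ltbp3 stand higher and Tgfb3 and Ltbp2 lower in serum-starved cells, whereas the groups overlap for Tgfb1 and Tgfbr3.

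Tgfb3 fell in serum-starved cells. It encodes the TGF-beta3 isoform, which has roles in palate and cartilage development. Tgfb3 had 29.03, 23.39 and 25.62 FPKM in serum-starved libraries, against 43.86, 53.26 and 42.97 FPKM in control libraries. Every serum-starved library lay below every control library. The mean was 26.0 ± 2.84 FPKM in serum-starved and 46.7 ± 5.70 FPKM in control cells (SD, n = 3 each), 1.80-fold lower, with a log2 fold change of -0.82 ± 0.106 (SE; limma, Benjamini-Hochberg adjusted p = 0.000259). Over the 16 alternatives its adjusted p ranged from 4.32e-05 to 0.00177.

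Tgfb2 moved the other way, from the lowest level of the 10 genes. It encodes the TGF-beta2 isoform, whose binding to the signalling receptors depends on the co-receptor betaglycan more than that of the other isoforms. Tgfb2 had 11.09, 14.9 and 9.25 FPKM in serum-starved libraries, against 6.56, 8.86 and 8.98 FPKM in control libraries. The groups did not overlap, but serum-starved replicate 3 and control replicate 3 differed by little. The log2 fold change was 0.47 ± 0.17 (SE; limma, Benjamini-Hochberg adjusted p = 0.0408). Its adjusted p was 0.128 without control replicate 1, 0.051 without control replicate 2, 0.0704 without serum-starved replicate 1 and 0.122 without serum-starved replicate 2. The log2 fold change was 0.34 without control replicate 1, 0.53 without control replicate 2, 0.49 without serum-starved replicate 1 and 0.30 without serum-starved replicate 2.

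Tgfb1, the ligand most studied in fibrosis and immune control, was the most abundant ligand transcript in every library. Tgfb1 had 148.91, 130.22 and 141.2 FPKM in serum-starved libraries, against 147.19, 161.12 and 160.29 FPKM in control libraries. The groups overlapped through serum-starved replicate 1 and control replicate 1. A difference was not shown, with a log2 fold change of -0.16 (95% interval -0.32 to 0.01; limma, Benjamini-Hochberg adjusted p = 0.0909). The adjusted p was 0.038 with median-ratio scaling and 0.0306 with library weights, and the log2 fold change was 0.04 with every library scaled to the same total.

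Together the 3 ligands summed to 189.0, 168.5 and 176.1 FPKM in serum-starved libraries and to 197.6, 223.2 and 212.2 FPKM in control libraries. Tgfb1 made up 78.7% ± 1.46 of that sum in serum-starved and 74.1% ± 1.71 in control cells (SD, n = 3 each). The share of Tgfb3 was 14.6% ± 0.739 in serum-starved and 22.1% ± 1.81 in control cells, a difference of -7.5 percentage points. Tgfb2 took 6.7% ± 1.92 in serum-starved and 3.8% ± 0.469 in control cells. For each ligand share the groups did not overlap, which in an exact two-sided permutation test gives p = 0.1, the smallest that 3 libraries against 3 allow (0.111 after Benjamini-Hochberg adjustment over 10 shares). The shares of a role add up to the whole, so they are not independent of each other. The Tgfb1 share was higher in serum-starved cells although Tgfb1 itself did not pass the test (log2 fold change -0.16). Shares do not depend on a scaling factor per library, but the summed FPKM of each role does. Library totals were also lower in serum-starved (447788 to 473452) than in control libraries (522165 to 530095).

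Among the receptors, Tgfbr2 had the largest change. It encodes the type II receptor, the kinase that first binds the active ligand. Tgfbr2 had 85.57, 88.34 and 98.65 FPKM in serum-starved libraries, against 45.88, 45.81 and 51.77 FPKM in control libraries. The lowest serum-starved library stood well above the highest control library. The mean was 90.9 ± 6.89 FPKM in serum-starved and 47.8 ± 3.42 FPKM in control cells (SD, n = 3 each), 1.90-fold higher, with a log2 fold change of 0.91 ± 0.0793 (SE; limma, Benjamini-Hochberg adjusted p = 2.85e-05). Over the alternatives its log2 fold change ranged from 0.85 to 1.10.

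Tgfbr1, the type I receptor kinase ALK5 that passes the signal to SMAD2 and SMAD3, stood far lower than Tgfbr2 in both groups. Tgfbr1 had 17.93, 17.7 and 16.55 FPKM in serum-starved libraries, against 15.62, 15.87 and 13.56 FPKM in control libraries. The groups did not overlap, but the test was not passed (log2 fold change 0.20, 95% interval 0.02 to 0.38; limma, Benjamini-Hochberg adjusted p = 0.0551). The adjusted p was 0.00277 with every library scaled to the same total and 0.0275 after quantile normalization. Tgfbr3, which encodes betaglycan, the membrane proteoglycan that presents ligand to the type II receptor, had 13.02, 16.98 and 17.98 FPKM in serum-starved libraries and 15.98, 15.0 and 18.11 FPKM in control libraries. Its groups overlapped, with a log2 fold change of -0.04 (95% interval -0.32 to 0.24; limma, Benjamini-Hochberg adjusted p = 0.797) whose sign depended on the setting.

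Tgfbr2 was 73.1% ± 1.17 of the summed receptor FPKM in serum-starved and 60.3% ± 1.5 in control cells, a difference of 12.8 percentage points. Tgfbr1 was 14.1% ± 1.51 in serum-starved and 19.0% ± 2.43 in control cells, and Tgfbr3 was 12.8% ± 1.44 in serum-starved and 20.6% ± 1.07 in control cells (SD, n = 3 each). The groups did not overlap for any of the 3 receptor shares (exact two-sided permutation test, p = 0.1 for each, the smallest possible). These shares too are tied to each other. Those of Tgfbr1 and Tgfbr3 were lower although neither gene passed the test (log2 fold changes 0.20 and -0.04). Summed receptor FPKM was 124 ± 8.40 in serum-starved and 79.2 ± 3.69 in control cells, 1.57-fold higher in the mean.

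The 4 latency protein genes passed the test, in opposite directions, where 61.1% of all tested genes did. Ltbp1 passed it in 9 and Ltbp4 in 14 of the 16 alternatives. Ltbp3, whose protein binds the latent complex of each TGF-beta isoform and is needed in mice for normal bone and tooth growth, had 115.67, 118.55 and 122.3 FPKM in serum-starved libraries, against 65.82, 68.95 and 72.32 FPKM in control libraries. The libraries of each group lay close together and the groups were far apart. The mean was 119 ± 3.32 FPKM in serum-starved and 69.0 ± 3.25 FPKM in control cells (SD, n = 3 each), 1.72-fold higher, with a log2 fold change of 0.78 ± 0.0618 (SE; limma, Benjamini-Hochberg adjusted p = 1.78e-05).

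Ltbp2 fell in serum-starved cells. It encodes the family member that does not bind latent TGF-beta and is part of elastic microfibrils. Ltbp2 had 209.13, 290.23 and 238.32 FPKM in serum-starved libraries, against 417.05, 425.67 and 485.15 FPKM in control libraries. Every serum-starved library lay below every control library, with serum-starved replicate 2 the nearest to them. The mean was 246 ± 41.1 FPKM in serum-starved and 443 ± 37.1 FPKM in control cells (SD, n = 3 each), 1.80-fold lower, with a log2 fold change of -0.86 ± 0.12 (SE; limma, Benjamini-Hochberg adjusted p = 0.00041).

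Ltbp1 and Ltbp4 changed less. Ltbp1, which tethers the latent complex to fibronectin and fibrillin, had 317.19, 314.34 and 299.12 FPKM in serum-starved libraries, against 264.88, 259.01 and 287.8 FPKM in control libraries. Its groups did not overlap, by a narrow margin at control replicate 3, and the log2 fold change was 0.20 ± 0.0667 (SE; limma, Benjamini-Hochberg adjusted p = 0.0308). Its adjusted p was 0.0873 without control replicate 1, 0.117 without control replicate 2, and 0.0748, 0.0736 and 0.054 without serum-starved replicates 1, 2 and 3. Ltbp4, whose protein takes part in elastic fibre assembly and is known mainly to bind latent TGF-beta1, had 16.39, 15.67 and 16.76 FPKM in serum-starved libraries, against 18.48, 19.68 and 23.4 FPKM in control libraries. Every serum-starved library lay below the controls (log2 fold change -0.31 ± 0.0916 (SE); limma, Benjamini-Hochberg adjusted p = 0.0174). It was 0.0571 without serum-starved replicate 2 and 0.25 with every library scaled to the same total.

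The most abundant LTBP transcript differed between the groups. Ltbp2 was 35.4% ± 3.76 of the summed LTBP FPKM in serum-starved and 55.1% ± 0.713 in control cells, a difference of -19.7 percentage points. Ltbp1 was 45.0% ± 2.89 in serum-starved and 33.7% ± 0.748 in control cells, and Ltbp3 was 17.2% ± 1.06 in serum-starved and 8.6% ± 0.296 in control cells (SD, n = 3 each). Ltbp1 was thus first and Ltbp2 second in serum-starved libraries, and the order was the other way round in control libraries. The groups did not overlap for these 3 shares (exact two-sided permutation test, p = 0.1 for each, the smallest possible). Ltbp4 made up 2.4% ± 0.209 in serum-starved and 2.6% ± 0.141 in control cells, with overlapping groups (exact p = 0.4). Summed LTBP FPKM was 691 ± 42.2 in serum-starved and 803 ± 57.2 in control cells. That sum includes Ltbp2, whose protein does not bind latent TGF-beta. Ltbp1 and Ltbp3 rose, while Ltbp2 and Ltbp4 fell.

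**Figure D2:**
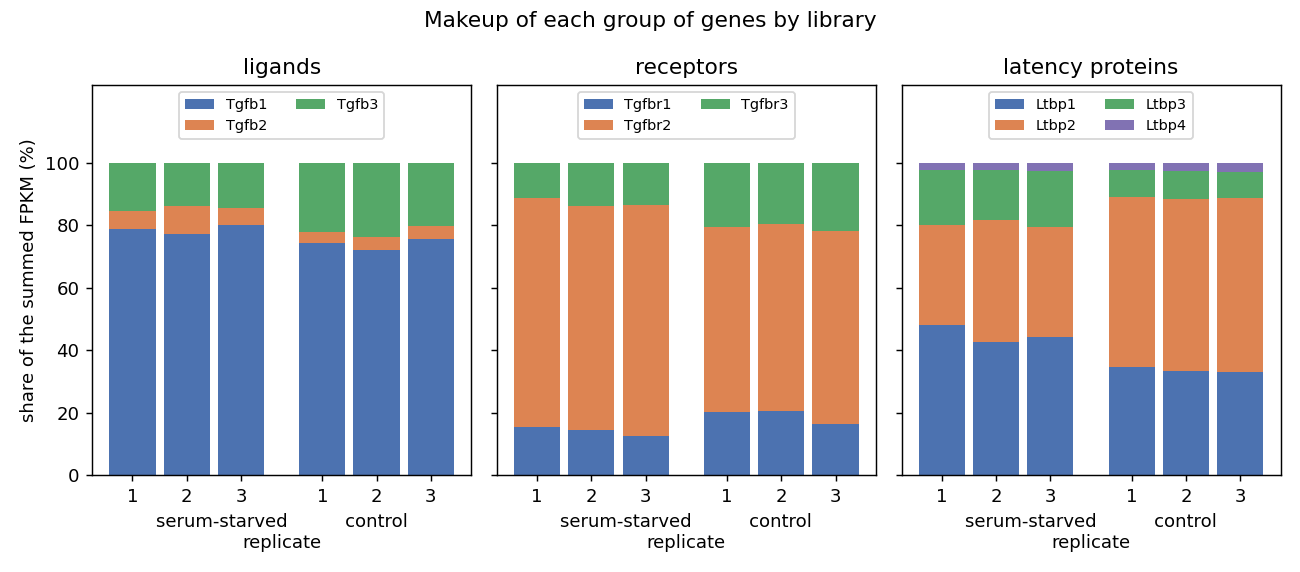
Share (%) of each gene in the summed FPKM of its role, for every library, with the 3 serum-starved libraries on the left of each panel and the 3 control libraries on the right. The Tgfbr2 share is 71.8% to 74.1% in serum-starved and 59.2% to 62.0% in control libraries, and the Ltbp2 share is 31.8% to 39.3% in serum-starved and 54.4% to 55.8% in control libraries.

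**Figure D3:**
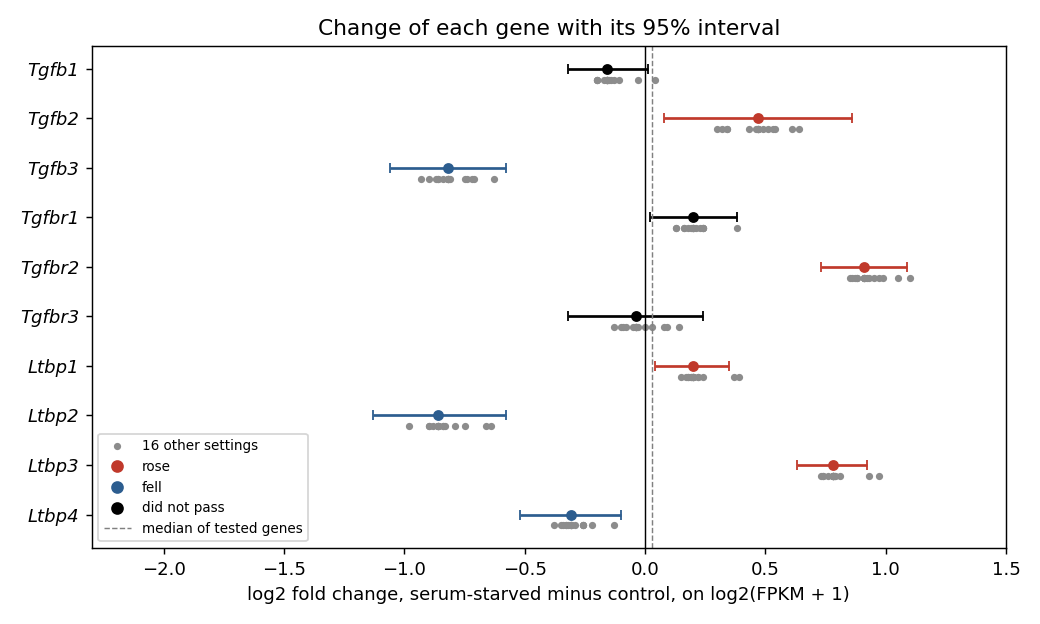
Log2 fold change (serum-starved minus control, on log2(FPKM + 1)) of each gene with its 95% interval, coloured by call, and the same value under 16 other settings as grey points below it. The points of Tgfbr2 and Ltbp3 lie above 0 and those of Tgfb3 and Ltbp2 below 0 in every setting, while those of Tgfb1 and Tgfbr3 fall on both sides.

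By level, the order in serum-starved cells was Ltbp1, Ltbp2, Tgfb1, Ltbp3, Tgfbr2, Tgfb3, Tgfbr1, Ltbp4, Tgfbr3 and Tgfb2. Neighbours in that order did not overlap in FPKM down to Tgfb3 and Tgfbr1, whereas Tgfbr1 with Ltbp4, Ltbp4 with Tgfbr3 and Tgfbr3 with Tgfb2 did. In control cells the order was Ltbp2, Ltbp1, Tgfb1, Ltbp3, Tgfbr2, Tgfb3, Ltbp4, Tgfbr3, Tgfbr1 and Tgfb2. There Tgfbr2 and Tgfb3 overlapped, at means of 47.8 and 46.7 FPKM, as did Tgfbr3 and Tgfbr1. In serum-starved cells the mean FPKM of Tgfbr2 was 90.9 and that of Tgfb3 26.0, with no overlap. Ltbp1 ranked 227 in serum-starved and 295 in control cells among all genes by mean FPKM, and Tgfb2 ranked 5675 in serum-starved and 6923 in control cells.

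Promoters of the 2 genes with the largest rises and the 2 with the largest falls are shown, to set sequence beside direction. That of Ltbp1, which is of the same family as Ltbp2 and Ltbp3 but changed less, is shown with them. Each is the 250 bases upstream of a RefSeq transcript start on the GRCr8 assembly, written 5′ to 3′ on the strand of the gene. Tgfbr2 and Ltbp3 (rose) are at chr8:124761470-124761719 (minus strand) and chr1:212458955-212459204 (plus strand), Ltbp1 (rose) is at chr6:26177302-26177551 (minus strand), and Tgfb3 and Ltbp2 (fell) are at chr6:111456947-111457196 (minus strand) and chr6:110257299-110257548 (minus strand). Capitals mark matches, on either strand, to 6 motifs. These were the AP-1 site TGACTCA, which Fos and Jun proteins bind, and the core TGACGT of sites for ATF and CREB proteins. The GC box was searched as GGGCGG, the letters that Sp-family factors recognise, and the CCAAT box by the letters of its name. The TATA box was searched as TATAAA, the element that can position the transcript start, and the SMAD box as CAGACA, a form of the short element that SMAD proteins bind.
Tgfbr2: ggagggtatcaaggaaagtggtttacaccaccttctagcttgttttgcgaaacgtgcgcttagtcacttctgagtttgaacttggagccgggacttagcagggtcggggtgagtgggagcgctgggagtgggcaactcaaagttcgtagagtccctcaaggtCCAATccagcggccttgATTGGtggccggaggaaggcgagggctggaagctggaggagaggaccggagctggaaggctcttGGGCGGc
Ltbp3: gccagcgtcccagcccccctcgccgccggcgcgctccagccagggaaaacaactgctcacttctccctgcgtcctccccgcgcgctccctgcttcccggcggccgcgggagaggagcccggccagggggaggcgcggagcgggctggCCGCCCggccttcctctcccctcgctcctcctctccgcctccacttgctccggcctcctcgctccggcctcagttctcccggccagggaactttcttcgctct
Ltbp1: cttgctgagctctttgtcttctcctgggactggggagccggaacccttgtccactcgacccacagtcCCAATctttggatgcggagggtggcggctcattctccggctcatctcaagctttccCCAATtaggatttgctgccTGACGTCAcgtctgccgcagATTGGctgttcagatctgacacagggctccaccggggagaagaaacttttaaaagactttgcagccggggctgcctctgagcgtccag
Tgfb3: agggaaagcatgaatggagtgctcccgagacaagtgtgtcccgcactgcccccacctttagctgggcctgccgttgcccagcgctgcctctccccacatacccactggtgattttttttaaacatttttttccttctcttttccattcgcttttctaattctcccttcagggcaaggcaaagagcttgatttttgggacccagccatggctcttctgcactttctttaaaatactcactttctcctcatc
Ltbp2: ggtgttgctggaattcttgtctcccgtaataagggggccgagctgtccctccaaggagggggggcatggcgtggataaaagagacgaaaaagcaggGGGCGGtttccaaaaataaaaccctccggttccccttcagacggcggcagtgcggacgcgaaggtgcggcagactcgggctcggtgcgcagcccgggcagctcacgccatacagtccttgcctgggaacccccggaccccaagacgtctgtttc

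In the Tgfbr2 window there were 2 CCAAT matches, at -88 to -84 in sense and at -71 to -67 in antisense orientation (positions counted back from the transcript start), and 1 GC box at -7 to -2. The windows of Ltbp3 and Ltbp2, which moved in opposite directions, each held 1 GC box, and that of Tgfb3 held none of the 6 motifs. The Ltbp1 window held 3 CCAAT matches and 2 overlapping matches to the ATF/CREB core, in sense at -108 to -103 and in antisense orientation at -106 to -101. Over all 10 genes, 6 windows held a GC box and 4 a CCAAT box, while these occur in 30.5% and 34.0% of 33469 such windows in the genome table. Those windows are not limited to genes tested here, whereas all 10 members were tested, so the 2 sets are unlike. The ATF/CREB core was in 1 of the 10 windows and in 6.9% of all windows. The AP-1 site, TATA box and SMAD box were in none of the 10, against 4.0%, 12.9% and 17.2% of all windows. The 10 windows held between 48.8% (Tgfb3) and 75.6% (Tgfbr1) G and C, against a median of 51.2% over all windows. The part of base composition in these motif numbers was not tested. Matching letters do not show that a factor binds there.

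Around these genes, 5 lists with 73 symbols were followed, of which 72 were matched. In the list of genes that process or activate latent TGF-beta, 6 of the 9 genes tested rose, 1 fell (2 did not pass). The list's median log2 fold change was 0.35, beside 0.03 for all tested genes. Called genes were 77.8% of those tested, against 61.1% of all tested genes. Thbs1, which encodes thrombospondin-1, a matrix protein that can activate latent TGF-beta, had 3552, 4070 and 3893 FPKM in serum-starved libraries, against 1165, 1518 and 1285 FPKM in control libraries. It rose by 1.54 ± 0.112 on the log2 scale (SE; limma, Benjamini-Hochberg adjusted p = 1.01e-05). Bmp1, a protease that cleaves procollagen and also LTBP1, had 41.14, 42.53 and 44.99 FPKM in serum-starved and 19.26, 21.56 and 19.84 FPKM in control libraries, 2.12-fold higher in the mean. Mmp2, a gelatinase, was 5.71-fold higher. Itgb1, an integrin beta chain, averaged 521 ± 21.0 FPKM in serum-starved and 625 ± 51.6 FPKM in control cells and fell (log2 fold change -0.26). Its adjusted p (limma, Benjamini-Hochberg) was 0.0219, but 0.0773 without control replicate 1, 0.0809 without control replicate 2, 0.0624 and 0.0547 without serum-starved replicates 2 and 3, and its log2 fold change was 0.11 after quantile normalization. Itgb6 and Itgb8, the chains of the integrins best known for activating TGF-beta, were below the filter, at no more than 0.21 FPKM and 0.81 FPKM in any library. Also below it were Itgb3, Mmp9, and Lrrc32 and Nrros, which tether latent TGF-beta at the surface of other cells. Itgav and Itgb5, integrin chains of the same list, were well above the filter but did not pass the test. Itgav averaged 77.9 FPKM in serum-starved and 72.9 FPKM in control cells, and Itgb5 319 FPKM in serum-starved and 373 FPKM in control cells.

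Among matrix genes whose products bind or store TGF-beta, 6 of the 10 genes tested rose and 1 fell (70.0% called, near the 61.1% of all tested genes; 3 did not pass; median log2 fold change 0.78). The list holds small proteoglycans that bind TGF-beta, and Aspn, Dcn and Fmod (asporin, decorin and fibromodulin) had the largest log2 fold changes in it, at 6.44, 3.24 and 2.53. Aspn was at 0.36, 0.39 and 0.36 FPKM in control libraries, so it reached the filter only through serum-starved cells, and its log2 fold change was 7.97 with a pseudocount of 0.1 and 4.52 with 5. Control replicate 3 held Dcn at 44.34 FPKM, against 19.08 and 16.53 FPKM in the other control libraries. Fbn1, which encodes fibrillin-1, the microfibril protein that LTBPs attach to, fell, with 36.89, 38.41 and 39.54 FPKM in serum-starved libraries and 50.33, 45.85 and 42.14 FPKM in control libraries. Its log2 fold change was -0.26 ± 0.0768 (SE; limma, Benjamini-Hochberg adjusted p = 0.0179), and the adjusted p was 0.0546 without control replicate 1, 0.057 without serum-starved replicate 1 and 0.461 with every library scaled to the same total.

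In the list of receptor regulators 3 of the 12 genes tested rose and 5 fell (66.7% called, near the 61.1% of all tested genes; 4 did not pass; median -0.07), or 5 and 3 with every library scaled to the same total. Under that scaling 5303 of all 11493 tested genes rose and 2327 fell. Vasn, which encodes vasorin, a membrane protein that traps TGF-beta, had 62.32, 66.44 and 63.3 FPKM in serum-starved libraries, against 138.64, 133.26 and 135.87 FPKM in control libraries. It fell 2.12-fold, with a log2 fold change of -1.07 ± 0.0578 (SE; limma, Benjamini-Hochberg adjusted p = 2.05e-06). Strap, a receptor-binding inhibitor, fell 1.33-fold and Fkbp1a, which encodes the type I receptor's inhibitory partner FKBP12, fell 1.30-fold. Pmepa1 and Ldlrad4, related membrane proteins that are induced by TGF-beta and hold back SMAD phosphorylation, rose. Pmepa1 had 355.07, 164.97 and 165.95 FPKM in serum-starved libraries, against 106.34, 112.57 and 64.13 FPKM in control libraries, so that serum-starved replicate 1 stood apart from the other serum-starved libraries. Ldlrad4 had 19.11, 14.48 and 13.16 FPKM in serum-starved and 7.53, 7.23 and 6.61 FPKM in control libraries. Tgfbrap1, a receptor-associated protein, rose 1.29-fold. Eng, the co-receptor endoglin, was at most 0.12 FPKM in serum-starved and 0.31 FPKM in control libraries and was not tested.

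Of 13 SMAD and co-factor genes, 4 rose and 1 fell, while 8 did not pass (38.5% called, beside 61.1% of all tested genes, with a median of -0.02). Without control replicate 1, 2 of them fell. Smad7, the inhibitory SMAD that TGF-beta itself induces, had 3.0, 4.0 and 3.29 FPKM in serum-starved libraries, against 11.3, 12.77 and 12.03 FPKM in control libraries. It fell 3.51-fold, with a log2 fold change of -1.56 ± 0.101 (SE; limma, Benjamini-Hochberg adjusted p = 5.41e-06). Smad3 rose 1.5-fold to 30.9 ± 2.06 FPKM in serum-starved cells, against 20.5 ± 1.56 FPKM in control cells (SD, n = 3 each). Smad4, the shared partner of the receptor-activated SMADs, rose 1.34-fold and the repressor Tgif1 rose 1.38-fold, whereas Smad2 had a log2 fold change of -0.08 and did not pass.

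Genes commonly used as TGF-beta targets went both ways: 8 of 20 rose and 6 fell (70.0% called, near the 61.1% of all tested genes; 6 did not pass; median 0.51). With every library scaled to the same total, 13 rose, but more of all 11493 tested genes rose as well (5303, in place of 3640). Bhlhe40, a transcriptional repressor gene, had 19.03, 20.86 and 21.36 FPKM in serum-starved libraries, against 83.5, 90.95 and 88.43 FPKM in control libraries. All serum-starved libraries lay far below the controls, and Bhlhe40 fell 4.29-fold (log2 fold change -2.05 ± 0.0688 (SE); limma, Benjamini-Hochberg adjusted p = 1.83e-07). The AP-1 subunit gene Junb fell 4.20-fold and Snai1, which encodes a repressor of epithelial genes, 2.30-fold. On the other side, Acta2, which encodes smooth muscle actin, rose 3.90-fold, the matrix protein gene Postn 3.39-fold and Nox4, which encodes an NADPH oxidase, 7.26-fold. Nox4 had 6.78, 5.85 and 5.3 FPKM in serum-starved libraries, against 0.76, 1.12 and 0.59 FPKM in control libraries. At such low control levels its log2 fold change, 1.94 with a pseudocount of 1, was 2.75 with 0.1 and 0.91 with 5. Many of these genes also respond to other signals in serum, and the list does not measure TGF-beta activity.

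**Figure D4:**
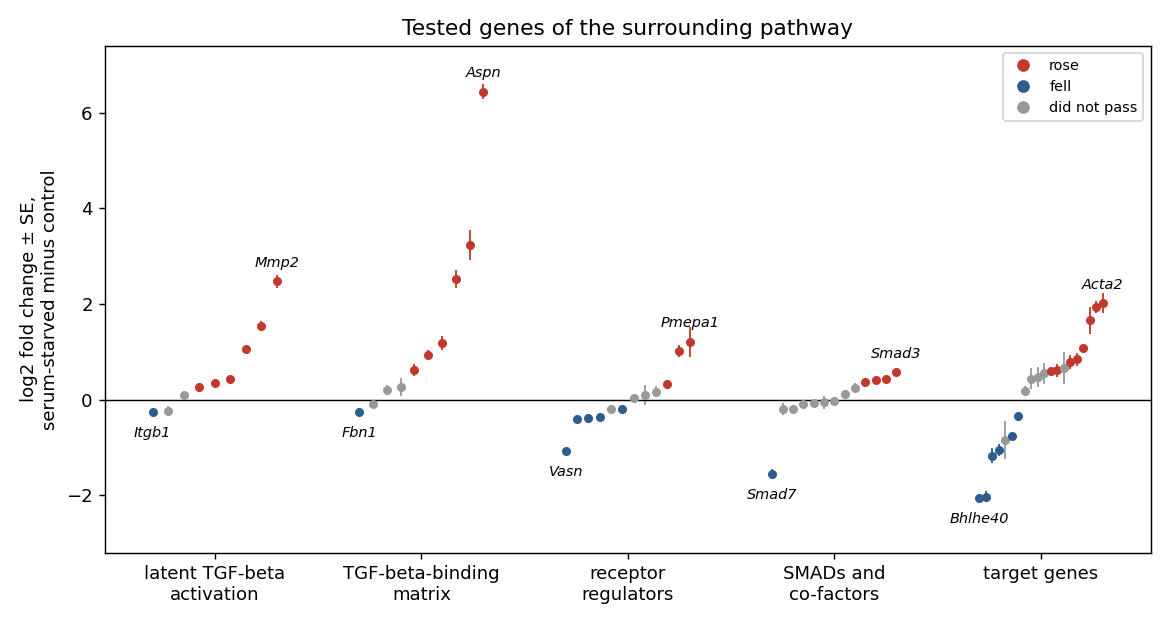
Log2 fold change with its SE (serum-starved minus control) for every tested gene of the 5 lists, ordered by value within each list and coloured by call, with the lowest and highest gene of each list named. The activation and matrix lists hold 1 gene each that fell, Itgb1 and Fbn1, while the target genes split into 8 that rose and 6 that fell.

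For the called gene with the largest change in each role, the genes most like it across the 6 libraries were found by Pearson correlation of log2(FPKM + 1). They were Col18a1 (r = 0.9986), Rpl32 and Phlda3 (r = 0.9972 each) for Tgfb3. For Tgfbr2 they were Abca3 (0.9983), Mtmr11 (0.9976) and Smo (0.9975), and for Ltbp2 they included Trib1 (0.9988) and Tln2 (0.9981). Such values include the difference between the groups, and how much of them it makes up was not tested. An r above 0.9 was common: 2199 genes had it with Tgfb3, 2572 with Tgfbr2 and 1365 with Ltbp2.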

How the data were processed

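Ribosomal RNA was removed with probes before random-primed reverse transcription, per the labels' protocols. The submitters' processing notes name bcl2fastq 2.0, HISAT2, StringTie, DESeq2 and limma, with no role or order, and the build mm10, a mouse build, although 93.2% of the gene identifiers matched a rat gene table (GRCr8). Which build and annotation gave the values is thus open. The sources used here do not give how strand was treated, so overlapping or antisense genes could not be told apart. The deposited values carry no unit in the file headers and were treated as FPKM, since they are not whole and sum to different totals. TPM over a wider gene set would differ by a factor per library, which the scaling alternatives address. No counts accompany them, so depth and counting error are unknown.

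Values were analysed as log2(value + 1). The 11493 genes that reached a value of 1 in 3 or more libraries were tested with limma 3.58.1 in R 4.3.3 (intensity trend, treatment as the only term, 4 residual degrees of freedom), with Benjamini-Hochberg adjustment over all of them. The script was tested on simulated data in which far fewer genes changed than were called here. That test does not cover so many changes. Shares within a role were compared by exact permutation. Joins, shares and plots used Python 3.11.15, pandas 2.3.3, numpy 2.4.6, scipy 1.17.1 and matplotlib 3.10.9. All 10 members were named, and in each list up to 3 called genes with the largest rise and 3 with the largest fall whose higher group averaged 5 or more. Other genes were named after their values were seen, and some items that these rules cover are not reported here. The genes most like a member met the same minimum. Members and lists were chosen with earlier results of these data known. Promoter sequences were taken from RefSeq (GRCr8) for all 10 members.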

Additional observations from a re-analysis of the deposited data

How the results depend on the processing

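Alternatives changed the pseudocount (0.1 or 5), the filter on low values (none, or 5), the scaling, library weights, the variance trend, a replicate block, or left out 1 library. Tgfbr2, Ltbp3, Tgfb3 and Ltbp2 kept direction and call in all 16. With every library scaled to the same total, the median log2 fold change of all tested genes was 0.201 in place of 0.029, and 5303 genes rose and 2327 fell, in place of 3640 and 3384. Under that scaling the log2 fold change was 0.04 for Tgfb1 and 0.14 for Tgfbr3, 13 target genes rose, 5 receptor regulators rose and 3 fell, and 0 activation genes and 0 matrix genes fell. With median-ratio scaling 2 members rose, 2 activation genes fell and 2 SMAD genes fell. After quantile normalization 0 activation genes and 0 matrix genes fell, 2 SMAD genes fell, and the log2 fold change of Itgb1 was 0.11. With library weights 2 activation genes and 2 SMAD genes fell, and the log2 fold change of Tgfbr3 was 0.08. With no intensity trend 2 SMAD genes fell. Leaving out 1 library, the log2 fold change of Tgfbr3 ranged from -0.13 to 0.09. The pseudocount set the size of change of genes near 0 in control cells, with log2 fold changes of 7.97 (0.1) and 4.52 (5) for Aspn and 2.75 (0.1) and 0.91 (5) for Nox4. Aspn was not tested without 1 serum-starved library, since the filter then left it out.

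Leaving out 1 library at a time, between 2 and 4 members rose and between 2 and 3 fell. The activation genes that fell numbered 0 to 2, the matrix genes that fell 0 to 1 and the SMAD genes that fell 1 to 2. The cause of these changes was not tested. Fewer libraries also leave fewer degrees of freedom, and the part of this was not tested either.

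A pairing of the libraries by replicate number was not seen in the values, which does not exclude one. Same-numbered libraries had correlations of their deviations from the group means of 0.037, -0.162 and 0.101, and not every library correlated best with its own number. With the replicate block 3508 genes rose and 3293 fell, the adjusted p (limma, Benjamini-Hochberg) of Ltbp1 was 0.0708 and that of Tgfbr1 0.0467. With no counts, the precision of low values is unknown.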
